A study of Mus musculus with 24 samples.

Results

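The expression of the Hox genes of the 4 mouse Hox clusters was examined in cultures differentiated from mouse embryonic stem (ES) cells. Members were all rows of the deposited expression table whose gene symbol was Hoxa, Hoxb, Hoxc or Hoxd followed by a number, which gave 39 of 33079 genes with 11 in HoxA, 10 in HoxB, 9 in HoxC and 9 in HoxD. Control cells (WT) carried the Per2::Luciferase knock-in, a luciferase reporter fused to the clock protein PER2, and the Rev-erba/Rev-erbb deficient cells (KO) carried the same knock-in. Both were grown as embryoid bodies and then plated, and at differentiation day 28 they were treated with 100 nM dexamethasone, a glucocorticoid that sets the phase of the circadian clock. RNA was taken every 4 h from 12 h to 56 h, which gave 12 WT and 12 KO libraries with 1 library per genotype and time point, each from the pooled RNA of 3 embryoid bodies. The KO cells had been made by CRISPR/Cas9 deletion of exons, first in Rev-erbb and then in Rev-erba, with picking of colonies, so that genotype and cell line cannot be told apart. The labels do not say whether the hours were separate differentiations, and p-values measure only the spread among the 12 libraries of a genotype, which may be technical.

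Hox genes encode homeodomain transcription factors that give cells their position along the head-to-tail axis and along the limbs. Within a cluster they are numbered by paralog group from the 3′ end, and low-numbered genes are known to be used from the hindbrain and neck onward, middle ones in the thorax, and high-numbered ones in the lumbar region, tail, urogenital tract and distal limb. Differentiated mesenchyme keeps a Hox pattern that records where in the body it belongs. REV-ERBα and REV-ERBβ, products of Nr1d1 and Nr1d2, are nuclear receptors that repress transcription from an A/T-rich stretch followed by AGGTCA.

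Exon fragments per library ran from 6183500.5 to 10287969, and the Hox genes together drew 1178 to 1929 fragments per library, which was 0.0170 to 0.0214% of them. Levels are given as RPKM, reads scaled to the exon length of the gene and to the library total, which can be compared between genes. RPM, scaled to the library total alone, was used for sums. Nr1d1 remained detectable in KO, with a median of 6.93 RPKM against 4.67 RPKM in WT, and Nr1d2 had a median of 3.16 RPKM against 1.83 RPKM. Reads summed over all exons do not show the edited exons, so these values do not check the genotype. The mesenchymal gene Col1a1 was high in both genotypes (842 ± 64.8 in WT and 972 ± 81.8 RPKM in KO, mean ± SD, n = 12). Other mesenchymal genes were far lower, among them Twist1 (5.19 and 4.59 RPKM) and Prrx1 (2.92 and 3.67 RPKM). Endoderm markers summed to 77.8 to 1009 RPKM in WT and 73.1 to 1008 RPKM in KO. The pluripotency gene Nanog was at most 0.704 RPKM in any library. Pou5f1 (Oct4) had means of 0.924 in WT and 0.828 RPKM in KO, with 4.73 RPKM in the highest WT library and 2.90 RPKM in the highest KO library. In bulk RNA, fewer cells of a type and less RNA per cell cannot be told apart.

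The HoxA cluster lies on chromosome 6 (GRCm38, minus strand), HoxB on chromosome 11 (96194361 to 96368253, plus strand), HoxC on chromosome 15 (102921131 to 103036852, plus strand) and HoxD on chromosome 2 (74668310 to 74765142, plus strand). Of the 39 genes, 13 had a mean of at least 1 RPKM in WT and 12 in KO, and 6 in each genotype were under 0.1 RPKM. The profile did not rise or fall steadily with paralog number in any cluster. The highest levels of all were those of Hoxa11 and Hoxa10 in both genotypes, followed by Hoxc6 and Hoxd8.

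**Figure D1:**
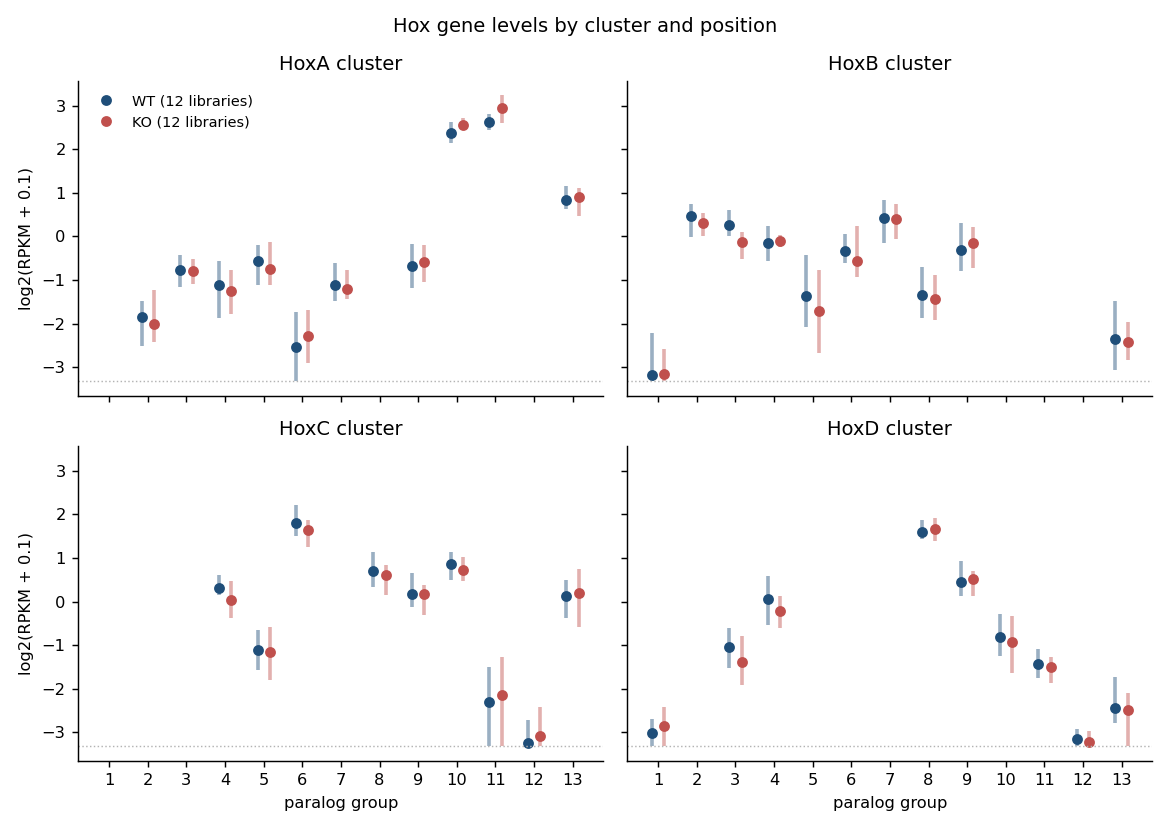
Level of 38 Hox genes as log2(RPKM + 0.1) against paralog group, with 1 panel per cluster, the mean of 12 libraries as a point and the lowest to highest library as a bar, WT in blue and KO in red. The dotted line is 0 RPKM. Hoxa10 and Hoxa11 stand highest, Hoxc6 and Hoxd8 lead their clusters, and the 2 genotypes follow each other at nearly every position.

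In HoxA, the posterior genes dominated. Hoxa11, which patterns the forearm and lower leg, kidney and uterus, had a mean of 6.07 ± 0.535 in WT and 7.64 ± 0.887 RPKM in KO (mean ± SD, n = 12). Hoxa10, which acts in the lumbar region and reproductive tract, had 5.09 ± 0.506 in WT and 5.82 ± 0.397 RPKM in KO. Hoxa13, the gene of the hand, foot and genital tubercle, was lower, with a WT range of 1.45 to 2.12 RPKM around a median of 1.68 RPKM and a KO range of 1.28 to 2.07 RPKM around 1.85 RPKM. Ranges of Hoxa11 and Hoxa10 overlapped, whereas each library of Hoxa10 was above each library of Hoxa13, and each of Hoxa13 was above each of Hoxa9, in both genotypes. The genes from Hoxa2 to Hoxa9 all had means under 0.6 RPKM.

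HoxB was flat and moderate. Hoxb2, a hindbrain gene, was highest in WT and ran from 0.888 RPKM through a median of 1.31 RPKM to 1.58 RPKM, against 0.907, 1.09 and 1.36 RPKM in KO. Hoxb7, a trunk gene, was highest in KO with 1.24 ± 0.195 RPKM and had 1.27 ± 0.247 RPKM in WT. Ranges of all neighbours in the HoxB order overlapped, so the change of leading gene is within their spread. Hoxb3, which also acts in the hindbrain, had 1.101 ± 0.158 in WT and 0.816 ± 0.115 RPKM in KO. The rest of Hoxb4 to Hoxb9 lay between 0.223 and 0.838 RPKM, and Hoxb1 and Hoxb13 at the ends of the cluster had means of at most 0.107 RPKM, with Hoxb1 at 0 in 8 of 12 libraries of each genotype.

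In HoxC the middle gene Hoxc6, which marks the lower neck and upper thorax, led. Its WT libraries ran from 2.71 RPKM through a median of 3.39 RPKM to 4.54 RPKM, and its KO libraries from 2.30 RPKM through 2.98 RPKM to 3.54 RPKM. Every library of Hoxc6 was above every library of the next gene, Hoxc10, within its genotype. Hoxc10, a lumbar gene, had 1.74 ± 0.227 in WT and 1.57 ± 0.209 RPKM in KO, and Hoxc8, a thoracic gene, had 1.54 ± 0.277 and 1.44 ± 0.203 RPKM. Below them Hoxc9 (1.04 RPKM in WT, 1.03 RPKM in KO), Hoxc13 (0.998 and 1.07 RPKM), a gene of hair and nails, and Hoxc4 (1.15 and 0.932 RPKM) could not be ordered beyond their spread. Hoxc11 and Hoxc12, which lie between the expressed Hoxc10 and Hoxc13, had means of at most 0.141 RPKM.

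HoxD peaked at Hoxd8, a trunk gene. Its WT libraries ran from 2.62 RPKM through a median of 2.94 RPKM to 3.57 RPKM and its KO libraries from 2.51 RPKM through 3.11 RPKM to 3.64 RPKM, all above the highest library of the next gene, Hoxd9, in the same genotype. Hoxd9, of the lumbosacral region, had 1.28 ± 0.220 in WT and 1.33 ± 0.180 RPKM in KO. From Hoxd9 the levels stepped down to Hoxd10 (0.481 RPKM in WT), Hoxd11 (0.272 RPKM in WT) and Hoxd13 (0.0891 RPKM in WT), the opposite of HoxA, in which Hoxa10, Hoxa11 and Hoxa13 were the 3 highest genes. Hoxd1 and Hoxd12 had means of at most 0.0413 RPKM.

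Paralog group 12, which has only Hoxc12 and Hoxd12 in the mouse, summed to a median of 0.0195 in WT and 0.0258 RPKM in KO. Group 11 summed to 6.36 and 8.13 RPKM and group 10 to 7.29 and 7.71 RPKM, in which the HoxA member carried most of the level. Over the 39 genes, the mean levels of WT and KO on the log2(RPKM + 0.1) scale had a Pearson correlation of 0.994 and a Spearman correlation of 0.989. Single libraries correlated with a median of 0.968 among WT, 0.969 among KO and 0.966 between WT and KO. These points share gene lengths and annotation. By this measure a WT library resembled a KO library about as much as another WT library.

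Differences between KO and WT were tested with limma on log2(RPKM + 0.1) over the 15112 genes with a mean above 0.5 RPM in WT or KO, with Benjamini-Hochberg adjustment over all of them and calls at an adjusted p under 0.05. Of the 39 Hox genes, 30 passed this filter. Hoxa4 (0.571 RPM in WT, 0.497 RPM in KO) and Hoxb5 (0.604 and 0.422 RPM) passed through WT alone, and Hoxa2 was just outside with 0.321 and 0.276 RPM. The 9 genes under the filter were Hoxa2, Hoxa6, Hoxb1, Hoxb13, Hoxc11, Hoxc12, Hoxd1, Hoxd12 and Hoxd13, with means from 0.00738 to 0.181 RPKM, and their differences were not tested. Among the 30, 5 were called (16.7%), against 25.9% of all genes tested. Hoxa11 and Hoxa10 were higher in KO (6.67% of the 30, against 11.2% of all genes), and Hoxb3, Hoxc4 and Hoxd3 were lower (10% of the 30, against 14.7%). The Hox share lay below that of all genes, a difference that was not tested. The median log2 difference was -0.07 over the 30 Hox genes and -0.01 over all genes.

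Hoxa11 had 5.35 RPKM in the lowest WT library, a median of 5.94 RPKM and 6.88 RPKM in the highest, against 5.95, 7.81 and 9.31 RPKM in KO. The KO libraries sat higher, 9 of 12 above the highest WT library, and the lowest of them, at 32 h, was level with WT. The difference was 0.32 on the log2 scale (SE 0.0597, limma adjusted p = 4.075e-04), with KO higher at 11 of 12 time points and a mean 1.26 times that of WT. Hoxa11 shares 800 of its 2287 annotated exon bases with the antisense transcript Hoxa11os. The use of strand in counting is not stated, so their reads may not be separable and the Hoxa11 values may hold antisense reads. The 2 rows of Hoxa11os itself had 3.79 RPKM in WT and 4.32 or 4.28 RPKM in KO, with adjusted p = 0.0757 and 0.0942.

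Hoxa10, the neighbour of Hoxa11, ran from 4.32 RPKM through a median of 5.02 RPKM to 6.10 RPKM in WT and from 5.42 RPKM through 5.63 RPKM to 6.50 RPKM in KO. Of the WT libraries, 10 of 12 lay below the lowest KO library, and the other two lay among the KO values. Hoxa10 was higher in KO by 0.19 on the log2 scale (SE 0.0483, adjusted p = 0.004945) and at 10 of 12 time points. It shares no exon base with another gene of the annotation.

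Hoxb3 ran from 0.907 RPKM through 1.07 RPKM to 1.43 RPKM in WT and from 0.596 RPKM through 0.803 RPKM to 0.976 RPKM in KO, on means of 64.5 and 47.2 fragments. All 12 KO libraries were below the WT median and 9 of 12 below the lowest WT library. Its log2 difference was -0.39 (SE 0.0740, adjusted p = 4.975e-04), with KO lower at 11 of 12 time points. Hoxb3 shares 2250 exon bases with the antisense transcript Hoxb3os.

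Hoxc4, the most 3′ gene of HoxC and active in the neck, ran from 1.01 RPKM through 1.104 RPKM to 1.41 RPKM in WT and from 0.669 RPKM through 0.943 RPKM to 1.27 RPKM in KO. The groups overlapped, with 8 of 12 KO libraries below the lowest WT library. Hoxc4 fell by 0.29 on the log2 scale (SE 0.0827, adjusted p = 0.01248), at 10 of 12 time points.

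Hoxd3, which shapes the first neck vertebrae, was the weakest call. It ran from 0.247 RPKM through 0.370 RPKM to 0.555 RPKM in WT and from 0.164 RPKM through 0.278 RPKM to 0.480 RPKM in KO, on means of 19.8 and 14.9 fragments, and the groups overlapped over most of their range. Its log2 difference was -0.33 (SE 0.119, adjusted p = 0.04466), with KO lower at 10 of 12 time points, and the call was lost in 15 of the 24 fits that left out 1 library. It was also lost with a pseudocount of 1 RPKM (adjusted p = 0.0582), with no filter (0.0658) and with quantile normalization (0.117). Hoxd3 shares exon bases with Gm28230 and Hoxd4 on its own strand. They came to 2613 when summed over both genes, where a base shared with both would count for each. Hoxd4 had 0.955 in WT and 0.774 RPKM in KO (log2 difference -0.27, adjusted p = 0.0828). The libraries of 12 to 32 h taken alone called Hoxa10 but not the other 4. There the log2 difference was 0.28 for Hoxa11 (adjusted p = 0.0729), -0.34 for Hoxb3 (0.0885), -0.20 for Hoxc4 (0.351) and -0.31 for Hoxd3 (0.327), on 6 libraries of each genotype. Those of 36 to 56 h called Hoxa11, Hoxb3, Hoxc4 and also Hoxb6 (log2 difference -0.52, adjusted p = 0.0184) but not Hoxa10 (0.14, adjusted p = 0.275) or Hoxd3 (-0.34, adjusted p = 0.113).

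**Figure D2:**
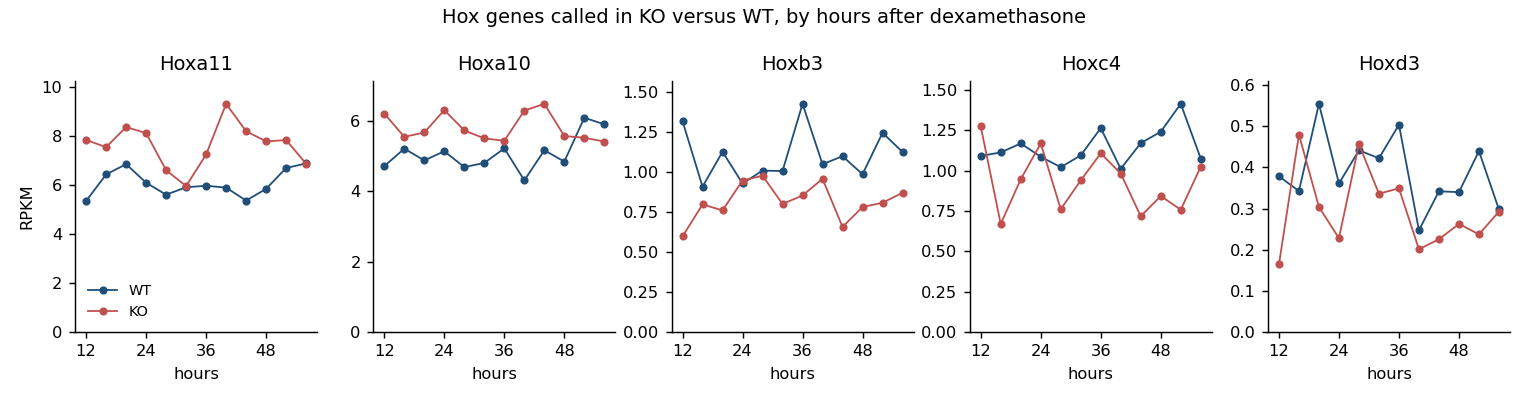
RPKM (y axis, from 0, a scale of its own for each gene) against hours after dexamethasone for the 5 Hox genes called in KO versus WT, with 1 point per library, WT in blue and KO in red. KO lies above WT for Hoxa11 at 11 of 12 hours and for Hoxa10 at 10 of 12, and below WT for Hoxb3 at 11 of 12 and for Hoxc4 and Hoxd3 at 10 of 12.

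The called genes are shown with sequence just upstream of the start used in the table (RefSeq windows, GRCm38.p6), because REV-ERB proteins bind DNA through AGGTCA. RefSeq windows were at hand for 22 of the 39 genes. Hoxb3 had none, and the Hoxc4 window starts at a different transcript, 428 bases from the start in the table. Stretches that the annotation gives as exon were left out. Capitals mark AGGTCA on the opposite strand (TGACCT) in Hoxd3 and TATAAA on the opposite strand (TTTATA) in Hoxa10, and the Hoxa11 stretch has neither. The Hoxd3 stretch is chr2:74711743-74711926 on the plus strand, the Hoxa10 stretch chr6:52234940-52235189 and the Hoxa11 stretch chr6:52245817-52245968, both on the minus strand.
Hoxd3: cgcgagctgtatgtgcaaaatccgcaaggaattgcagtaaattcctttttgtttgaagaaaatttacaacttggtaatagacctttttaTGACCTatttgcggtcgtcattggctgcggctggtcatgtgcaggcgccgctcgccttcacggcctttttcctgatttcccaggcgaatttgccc
Hoxa10: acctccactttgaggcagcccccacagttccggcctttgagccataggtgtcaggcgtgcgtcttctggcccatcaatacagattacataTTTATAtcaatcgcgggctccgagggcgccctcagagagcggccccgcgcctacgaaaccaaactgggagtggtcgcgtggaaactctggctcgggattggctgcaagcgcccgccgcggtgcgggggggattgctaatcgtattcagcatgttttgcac
Hoxa11: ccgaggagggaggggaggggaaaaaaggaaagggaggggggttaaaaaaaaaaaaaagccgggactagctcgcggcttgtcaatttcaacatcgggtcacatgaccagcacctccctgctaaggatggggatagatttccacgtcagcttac

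In the 250 bases before the start, AGGTCA on either strand was found in 6 of 24 Hox windows (Hoxb4, Hoxc4, Hoxd3, Hoxd4, Hoxd8 and Hoxd10) and in 14.02% of all 32851 windows. TATAAA on either strand was found in 4 Hox windows (Hoxa10, Hoxb8, Hoxd4 and Hoxd13) and in 12.37% of all. The site with its A/T-rich flank was taken as AGGTCA directly preceded by AANT (N is any base, either strand). It was searched after the Hoxd3 sequence had been seen, so the match in Hoxd3 was known beforehand. The pattern was found in 1 Hox window, that of Hoxd3, and in 0.177% of all windows. Because of that choice, this share does not measure how unusual the Hoxd3 match is. These are matches of letters, and binding was not measured.

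The differences were also counted by position, with no test between zones. Of 9 tested genes of groups 1 to 4, 7 were lower in KO and 3 were called (median log2 difference -0.16), and of 10 genes of groups 5 to 8, 9 were lower and none was called (median -0.09). In groups 9 to 13, 7 of 11 were higher in KO and 2 were called (median 0.07). Over all genes 8179 of 15112 were lower in KO, and 25.9% were called (11.2% higher and 14.7% lower). With so few genes per zone, the calls by zone were not tested against these shares. Without Hoxa4 and Hoxb5, which passed the filter through WT alone, 6 of 8 genes of groups 1 to 4 and 8 of 9 of groups 5 to 8 were lower. In the libraries of 12 to 32 h alone, 4 of 10 genes of groups 5 to 8 were lower against 9 of 10 from 36 to 56 h, whereas in the earlier hours 7 of 9 in groups 1 to 4 were lower and 9 of 11 in groups 9 to 13 were higher. The uncalled genes nearest the threshold were Hoxd4 and Hoxc6 (log2 difference -0.18, adjusted p = 0.0936), both lower in KO.

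**Figure D3:**
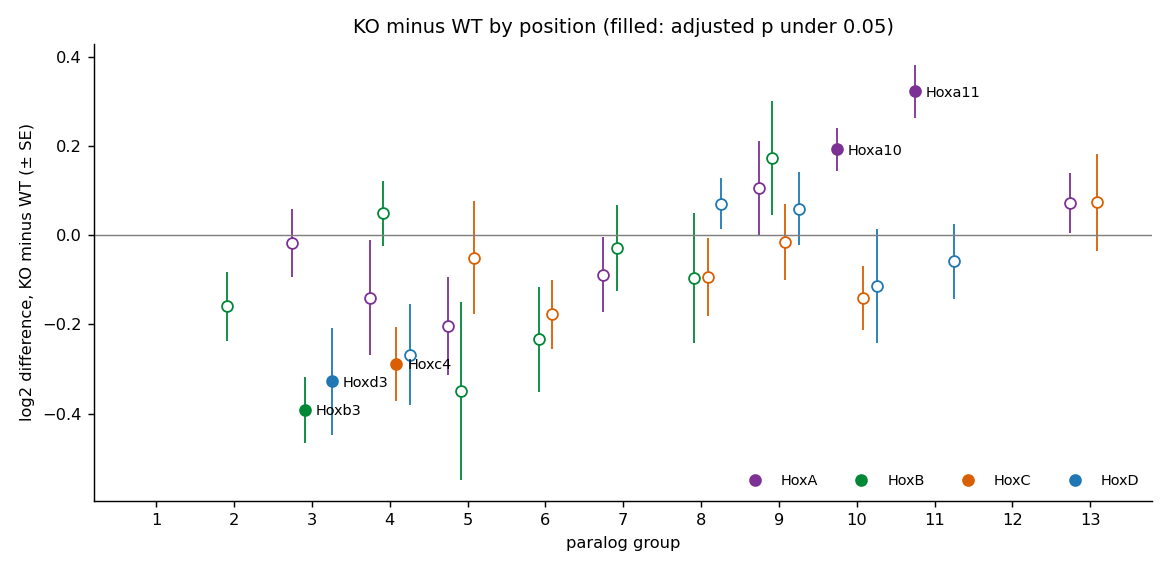
Log2 difference of KO minus WT (y axis, with SE) against paralog group for 29 of the 30 Hox genes tested, coloured by cluster, with filled points for an adjusted p under 0.05. The filled points below 0 are Hoxb3, Hoxc4 and Hoxd3 at groups 3 and 4, and those above 0 are Hoxa10 and Hoxa11.

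Among the tested genes of at least 1 RPKM that were not called, Hoxb2 differed by -0.16 on the log2 scale (SE 0.0778, adjusted p = 0.135), Hoxc10 by -0.14 (SE 0.0718, adjusted p = 0.155) and Hoxc8 by -0.09 (SE 0.0876, adjusted p = 0.460). Hoxb7 (-0.03) and Hoxc9 (-0.02) were near 0, and Hoxa13 (0.07), Hoxc13 (0.07), Hoxd8 (0.07) and Hoxd9 (0.06) were slightly higher in KO. Hoxb5, which passed the filter through WT alone, had a difference of -0.35 (SE 0.200) on 10.96 and 7.33 mean fragments, and 0.08 at 12 to 32 h. For the 16 tested genes under 1 RPKM, means lay between 0.223 and 0.955 RPKM.

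Summed over all members of a zone, groups 1 to 4 ran from 16.4 RPM through a median of 18.3 RPM to 21.4 RPM in WT and from 14.5 RPM through 15.8 RPM to 17.2 RPM in KO. KO was lower at 12 of 12 time points, although the ranges overlapped. As a share of all Hox RPM this was 19.4, 21.3 and 24.0% in WT (lowest, median, highest) and 16.4, 18.3 and 19.8% in KO. Groups 9 to 13 took 50.8, 52.8 and 56.6% in WT and 55.4, 58.0 and 62.1% in KO, higher in KO at 11 of 12 time points. The share of groups 5 to 8 was 24.0, 25.7 and 26.6% in WT and 20.9, 23.6 and 25.4% in KO. The 3 shares sum to 100% in each library and cannot move independently. No test was made on these sums.

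**Figure D4:**
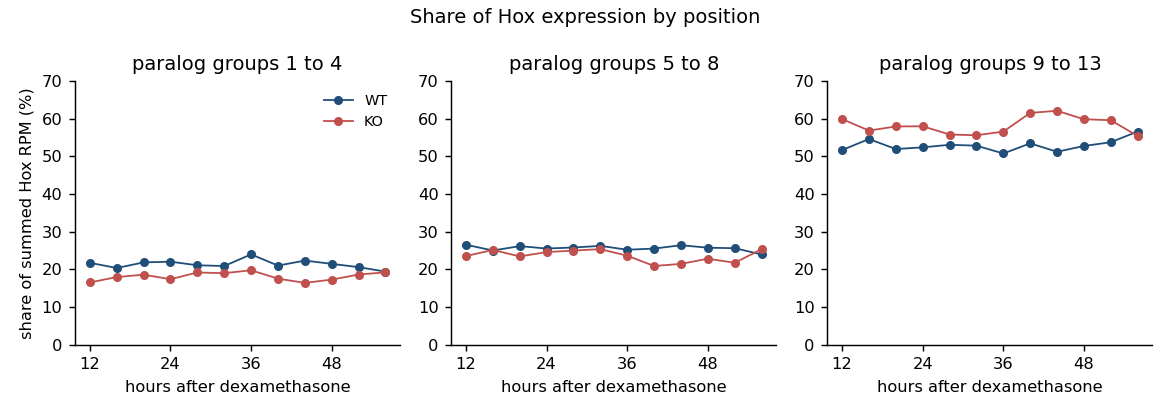
Share of the summed Hox RPM (y axis, percent) held by paralog groups 1 to 4, 5 to 8 and 9 to 13 against hours after dexamethasone, with 1 point per library, WT in blue and KO in red. The KO share of groups 1 to 4 is below WT at every hour and that of groups 9 to 13 above it at 11 of 12 hours.

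Hoxa10 and Hoxa11 held most of the posterior difference. Without these genes, groups 9 to 13 summed to medians of 18.2 RPM in WT and 18.7 RPM in KO, higher in KO at 7 of 12 time points. Without Hoxb3, Hoxc4 and Hoxd3, groups 1 to 4 still summed to medians of 10.8 RPM in WT and 10.03 RPM in KO, higher in KO at 2 of 12 time points. By cluster, HoxA held a median of 42.7% of Hox RPM in WT and 47.7% in KO, HoxB 16.2 and 14.5%, HoxC 23.8 and 21.4%, and HoxD 16.8 and 15.4%. The sum over all 39 genes was 78.01 to 94.6 RPM in WT and 81.4 to 97.1 RPM in KO, and these ranges overlapped.

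Because the study follows a circadian cycle, each gene was also tested for a 24 h rhythm and for a linear trend over the 12 time points (limma, with both terms in 1 model). None of the 30 Hox genes had a called rhythm in WT or KO, where 0.0463% and 0.0728% of all genes were called. At an unadjusted p under 0.05 there were 3 Hox genes in WT (10% of the 30, against 7.57% of all genes). In KO there were 4 (13.3%, against 7.92%). The smallest adjusted p were 0.529 (Hoxd9, WT) and 0.518 (Hoxa11, KO). A difference in rhythm between the genotypes was called in none of the Hox genes, with 0% called over all genes. As it called no gene at all, this test cannot show that the rhythms were alike. At an unadjusted p under 0.05 there were 3 Hox genes (10%, against 4.82% of all genes). No Hox gene had a called trend in WT or in KO, where 2.38% and 2.38% of all genes were called. Unadjusted p-values under 0.05 were found for 5 Hox genes in WT (16.7%, against 15.2% of all genes) and 7 in KO (23.3%, against 16.7%). The smallest adjusted p for a trend were 0.161 (Hoxb9, WT) and 0.0860 (Hoxb6, KO). The difference in trend was called in none (0% over all genes), with 2 Hox genes at an unadjusted p under 0.05 (6.67%, against 6.38% of all genes). Hox levels were thus not shown to cycle or drift over these hours. The largest fitted difference in trend at an unadjusted p under 0.05 was that of Hoxb6, which changed by 0.24 on the log2 scale from 12 to 56 h in WT and by -0.79 in KO (unadjusted p = 0.00656, adjusted p = 0.692).

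**Figure D5:**
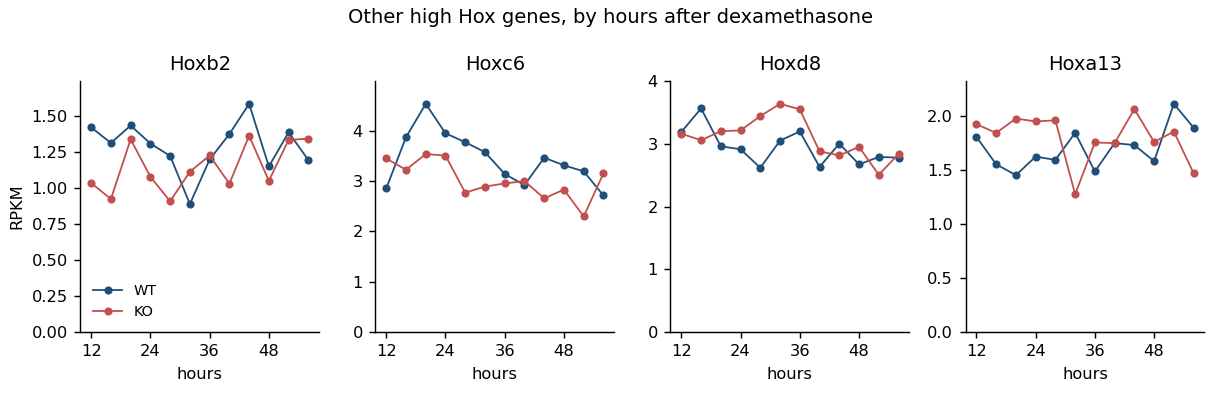
RPKM (y axis, from 0, a scale of its own for each gene) against hours after dexamethasone for Hoxb2, Hoxc6, Hoxd8 and Hoxa13, high genes of the 4 clusters that were not called in KO versus WT, with 1 point per library, WT in blue and KO in red. The lines of the genotypes cross for each gene and show no called rhythm or trend.

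The TALE proteins PBX, MEIS and PREP (gene name Pknox) bind DNA together with HOX proteins. All 10 rows of this family were tested. In KO 2 fell (20%, against 14.7% of all genes) and none was called higher. The uncalled Meis1, Pknox1, Pbx4 and Pknox2 were slightly higher in KO. Among those that fell, Pbx3 went from 7.18 ± 0.589 in WT to 6.37 ± 0.401 RPKM in KO (log2 difference -0.17, adjusted p = 0.005715). Pbx2 was the highest, at 11.2 in WT and 10.7 RPKM in KO, with an adjusted p of 0.188. Except for Pbx4, each row of the family was above 2 RPKM, a level that 4 Hox genes reached.

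Polycomb proteins keep Hox genes silent and Trithorax proteins keep them active. Of 20 tested rows of these groups, 5 fell in KO (25%, against 14.7% of all genes) and none rose. They were Cbx7 (3.57 in WT and 2.84 RPKM in KO, log2 difference -0.32, adjusted p = 9.478e-04), Phc1 (-0.19, adjusted p = 0.01375), Ezh1 (-0.09, adjusted p = 0.02287), the Trithorax methyltransferase Kmt2a (-0.15, adjusted p = 0.02495) and the H3K27 demethylase Kdm6a (-0.13, adjusted p = 0.01928). Phc2 was the highest at 12.6 and 12.1 RPKM and was not called. Members of both the silencing and the activating group were among the 5.

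Retinoic acid, made by ALDH1A2 and removed by CYP26 enzymes, and FGF8 are known to set Hox domains in the embryo. Aldh1a2 rose from 1.43 ± 0.243 RPKM to 2.43 ± 0.720 RPKM in KO (log2 difference 0.69, adjusted p = 5.528e-04), and Cyp26b1 from 1.23 ± 0.234 to 1.89 ± 0.480 RPKM (0.56, adjusted p = 0.002234). Fgf8 fell from 3.25 ± 0.718 to 2.25 ± 0.343 RPKM (-0.50, adjusted p = 0.001653), and the receptor Rara from 5.41 to 5.04 RPKM (-0.10, adjusted p = 0.0204). The other 4 of 8 tested genes were not called, among them Rarg, the highest at 13.5 RPKM in WT. In this list 25% were called higher and 25% lower, against 11.2% and 14.7% of all genes. A maker and a remover of retinoic acid rose, and a receptor fell.

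Of 26 rows for noncoding transcripts in or beside the clusters, 7 were tested and 1 was called (14.3% higher, against 11.2% of all genes). Gm53, within the span of HoxB, rose from 1.22 ± 0.407 in WT to 1.87 ± 0.196 RPKM in KO (log2 difference 0.64, adjusted p = 0.002074). Hoxa11os was the highest. Hotairm1 was at 1.75 and 1.85 RPKM (adjusted p = 0.737), and Hottip and Hotair were at or under 0.036 RPKM in both genotypes.

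Other genes of axial position gave a mixed picture. Over all genes tested, 11.2% were called higher and 14.7% lower in KO. In the forebrain list and in the midbrain and hindbrain list, 20% were called higher and 0% lower. In the limb and body wall list these shares were 12.5% and 37.5%. Of 5 tested forebrain genes Emx2, which also acts in the urogenital tract, rose from 1.09 to 1.41 RPKM (log2 difference 0.34, adjusted p = 1.785e-04), while the other 4 were lower in KO and not called (Otx1 -0.56, adjusted p = 0.0509, Otx2 -0.86, Lhx2 -0.36 and Six3 -0.06). Of 5 tested midbrain and hindbrain genes 1 rose and none fell. No trunk and tail gene was called out of 3 tested. The highest, Cdx2, had 1.21 ± 0.446 in WT and 0.848 ± 0.137 RPKM in KO (limma adjusted p = 0.0618), and the tail bud gene T was at 0.0352 and 0.0555 RPKM. Among 8 tested limb and body wall genes Prrx1 rose (2.92 to 3.67 RPKM, log2 difference 0.31, adjusted p = 0.01399). In the same list Tbx4 (1.30 to 0.920 RPKM, -0.47, adjusted p = 7.557e-05), Pitx1 (5.89 to 5.14 RPKM, -0.20, adjusted p = 0.0218) and Isl1 (0.430 to 0.318 RPKM, -0.37, adjusted p = 0.0368) fell.

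Markers of other cell types moved with genotype as well. Over all genes tested, 11.2% were called higher and 14.7% lower in KO, and each marker list was short. Shares of tested markers called higher were 80% (epithelial), 80% (cardiac) and 37.5% (mesenchyme). Those called lower were 75% (intermediate mesoderm and kidney), 25% (mesenchyme) and 20% (cardiac). Of 5 epithelial markers 4 rose in KO and none fell, and their summed level was 146.9 to 286.7 RPKM in WT and 261.2 to 434.6 RPKM in KO (Krt8 96.9 to 157 RPKM, adjusted p = 3.525e-05). Of 6 markers of intermediate mesoderm and kidney, tissues that use Hoxa10 and Hoxa11, 3 of 4 tested fell (Osr1, Wt1 and Lhx1), none rose, and the sum was 45.4 to 60.7 RPKM in WT and 29.3 to 50.1 RPKM in KO, with the defining Pax2 and Pax8 under 0.1 RPKM in both. Of 5 cardiac markers 4 rose and 1 (Tnnt2) fell, with sums of 40.0 to 67.4 RPKM in WT and 44.2 to 79.6 RPKM in KO. Tnnt2 was the highest of the 5 and held most of the sum, with means of 46.3 in WT and 37.3 RPKM in KO. Of 8 mesenchyme markers Col1a1, Col1a2 and Prrx1 rose and Pdgfra and Twist1 fell, and the sum was 1752 to 2162 RPKM in WT and 1842 to 2331 RPKM in KO. Neural markers summed to 7.68 to 30.8 RPKM in WT and 5.37 to 18.9 RPKM in KO, with none of 6 tested called. No marker was called among pluripotent (2 tested), endoderm (6 tested, sums of 77.8 to 1009 RPKM in WT and 73.1 to 1008 RPKM in KO) or leukocyte genes (5 tested). The part of these differences in cell make-up in the Hox differences was not tested.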

How the data were processed

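Poly(A)-selected RNA of 24 libraries (12 WT, 12 KO) was sequenced by the authors with 101-bp paired reads. The authors trimmed with Trimmomatic 0.36, mapped to GRCm38 with STAR 2.5.4b, removed alignments of mapping quality under 10 with SAMtools and counted exons of UCSC known canonical genes with HOMER; the use of strand is not given in the sources used here. The authors deposited RPKM values with the exonic length in bases of each gene, and RPM was computed from both. RPKM times length and total gave multiples of 0.5 fragment in 100% of values (within 0.01 fragment), because the total counts fragments; these served for depth and for the voom alternative. Samples were grouped by the labels, and no value column was left unmapped.

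No count test was used. Genes with a mean above 0.5 RPM in WT or KO were fitted with limma 3.58.1 (R 4.3.3) on log2(RPKM + 0.1), which understates changes of low genes, with genotype alone, and with genotype, linear trend and 24 h cosine and sine terms for the tests over time; Benjamini-Hochberg adjustment ran over 15112 genes. The fits were tested on simulated data. Sums, shares, correlations and sequences are descriptions. Every Hox gene of at least 1 RPKM in either genotype or called in a test is named with values, and the rest by counts; genes outside the clusters come from marker and regulator lists, of which called members and the highest are named, with a few others chosen after their values were seen. Some genes, 1 of the Hox genes among them, enter the counts and sums but are not reported here by name or in the figures. The members and lists were chosen with earlier results of these data known. Alternatives changed the pseudocount (1 and 0.01 RPKM), filter, scaling, block, covariates, hours and prior, and left out each library. Exon overlaps are from GENCODE M21 and promoters from RefSeq GRCm38.p6. Figures were drawn with matplotlib. With few fragments per Hox gene, counting error limits precision (Hoxb5, mean of 7.33 fragments in KO).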

Additional observations from a re-analysis of the deposited data

How the results depend on the processing

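Between 12 alternatives, 4 to 6 Hox genes were called in KO versus WT, except with the libraries of 12 to 32 h alone, where 1 was called (1 higher, 0 lower); with those of 36 to 56 h alone, 4 were called (1 higher). These fits used 6 libraries of each genotype. Leaving out each library in turn gave 4 to 6 calls, 2 to 2 higher and 2 to 4 lower. Hoxa11, Hoxa10, Hoxb3 and Hoxc4 were called in 24 of 24 of those fits and Hoxd3 in 9. Hoxd3 was lost with a pseudocount of 1 RPKM, with no filter, with quantile normalization and in both parts of the series, and was not tested with the filter at 1 RPKM. The voom weights were chosen after seeing the data and called 5. Rhythm, trend and their differences had 0 calls under every alternative run.

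The labels do not say whether the WT and KO libraries of an hour were cultured side by side. Deviations of same-hour libraries correlated from -0.175 to 0.389, with 7 of 12 pairs over 0.1. Their mean correlation was 0.163, against -0.0149 for pairs of other hours. With a replicate block by time point 6 Hox genes were called, the 5 and Hoxd4 (adjusted p = 0.0405). Among the other genes counted in the text, the block ended the calls of Isl1 (0.0617), Twist1 (0.0620), Myh6 (0.0655) and Epcam (0.0621) and called Cdx2 (0.0457), Tbx6 (0.0384) and Cd68 (0.00778).

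Directions turned for uncalled genes only, Hoxb5 and Hoxb6 among them, whose differences over all hours were -0.35 and -0.23. With quantile normalization the log2 differences became 0.003338 (Hoxc9), 0.02491 (Hoxc5), 0.02412 (Hoxd11) and 0.03731 (Hoxa3). With 12 to 32 h they became 0.05225 (Hoxb6), 0.08084 (Hoxb5), 0.06397 (Hoxc5), 0.07667 (Hoxd11), 0.03542 (Hoxd10), 0.03823 (Hoxa7) and 0.04568 (Hoxc8), and with 36 to 56 h -0.03783 (Hoxb4), 0.03578 (Hoxc9) and 0.07699 (Hoxa3). Leaving out a library gave ranges of -0.0525 to 0.0138 (Hoxa3), -0.08098 to 0.0137 (Hoxb7), -0.04328 to 0.02802 (Hoxc9) and -0.1025 to 0.007534 (Hoxc5). The cause was not tested. With summed RPKM in place of RPM, the median shares of groups 1 to 4, 5 to 8 and 9 to 13 were 18.9, 30.1 and 50.8% in WT and 16.4, 27.9 and 55.6% in KO.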
